A study of Drosophila melanogaster with 3 samples.

Results

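The odorant receptor (Or) and gustatory receptor (Gr) genes of Drosophila melanogaster were examined for peaks of the forkhead transcription factor Jumeau. Members were all protein-coding genes of the Ensembl annotation whose symbol is Or or Gr followed by a number and a letter, which gave 119 of 13945 protein-coding genes, 59 Or and 60 Gr. They lay on every major arm, with 27 on 2L, 28 on 2R, 22 on 3L, 28 on 3R and 14 on X, and none on chromosome 4. Jumeau was mapped by chromatin immunoprecipitation and sequencing (ChIP-seq) in whole embryos aged 0 to 24 hours, with both sexes together. All 3 biological replicates formed 1 group. The embryos came from the strain jumu-MiMIC-GFP, 1 donor line per the labels, in which an eGFP exon placed in an intron of jumu gives a Jumeau-eGFP fusion protein, and an antibody against GFP was used. Whether the fusion protein is fully functional is not given in the sources used here. Whole embryos mix all cell types and stages of embryogenesis, so a peak cannot be assigned to a cell type, and no control sample was analysed here.

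Or proteins form odour-gated ion channels with the shared co-receptor Orco, and most olfactory neurons express a single Or gene or very few. Gr proteins detect sugars, bitter compounds, carbon dioxide and contact pheromones, mainly in taste neurons. Both families are expressed in differentiated sensory neurons, which make up few of the cells of an embryo. Forkhead proteins bind DNA through a winged-helix domain, and Jumeau has known roles in the embryonic heart and in the nervous system.

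The values are the authors' peak lists in genome build dm6. The relaxed lists held 30000 peaks in each replicate and 29812 peaks in the pooled data, and the optimal list, thresholded for reproducibility, held 3845. The optimal peaks were the 3845 pooled peaks of highest signal, down to 112, so a peak outside that list was a weaker entry of the pooled list and not a site shown to be free of the protein. Signal is the authors' score of a peak and its scale is not stated in the sources used here. The sequencing depth is unknown. Replicate signals were therefore scaled by that replicate's median across optimal peaks with a matching summit (74.8, 58.1 and 54.5 in replicates 1, 2 and 3), and the quotient is called relative signal.

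The sequences at the peaks discussed most are given first. They are from the RefSeq genome of the same assembly, on the plus strand and written 5′ to 3′, and the capitals mark the 11 bases centred on the summit of the pooled peak. Or88a and Or9a are shown because they held the optimal peaks nearest to any receptor gene, at chr3R:14108705-14108765 and chrX:10460643-10460703. The DNA between the start sites of Gr63a and Lamtor4 at chr3L:3896604-3896899, Gr64a at chr3L:4025908-4025936, Gr21a at chr2L:781067-781095 and Gr28a at chr2L:7453639-7453699 are shown because every replicate had a summit within 100 bp of the pooled summit. Those replicate summits need not lie inside the shorter windows printed.
Or88a: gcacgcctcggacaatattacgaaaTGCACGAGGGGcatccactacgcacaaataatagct
Or9a: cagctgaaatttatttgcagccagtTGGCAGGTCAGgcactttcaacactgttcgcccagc
Gr63a and Lamtor4: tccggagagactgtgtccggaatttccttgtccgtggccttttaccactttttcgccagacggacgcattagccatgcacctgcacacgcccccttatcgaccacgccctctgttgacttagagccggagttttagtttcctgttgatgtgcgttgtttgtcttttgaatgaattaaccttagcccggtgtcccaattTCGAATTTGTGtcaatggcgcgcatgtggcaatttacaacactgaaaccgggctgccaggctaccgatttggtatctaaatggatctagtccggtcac
Gr64a: ggttgtttaTCAGCGCAAACaaaagccgt
Gr21a: gtttgcaatGCATTCCCTACcattttttc
Gr28a: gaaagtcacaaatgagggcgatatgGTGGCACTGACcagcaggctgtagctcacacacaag
The stretch between Gr63a and Lamtor4 is the whole 296 bases that separate their start sites. None of these windows held the forkhead core word TGTTTAC on either strand. That says only that these letters are not in these windows, and no other forkhead word was searched.

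Few receptor genes had a strong Jumeau peak near a start site. An optimal summit lay within 1 kb of a start site of 2 of the 119 receptor genes (1.68%, 95% Wilson interval 0.462 to 5.92%), Or88a and Or9a. Over all protein-coding genes the share was 22.4%, and over the 13826 other genes it was 22.6% (21.9 to 23.3%). None of the 60 Gr genes had one, and a count of 0 of 60 allows a share of up to 5%. Intervals here cover counting error only and treat genes as independent, although neighbouring genes can share a peak.

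Weaker peaks were also fewer at the receptor genes, but not rare. In the pooled list 30 receptor genes had a summit within 1 kb (25.2%, 18.3 to 33.7%), 16 of them Or and 14 Gr, against 8815 of the other genes (63.8%) and 63.4% of all protein-coding genes. Replicate 1 gave 28 receptor genes (23.5%), against 63.9% of all genes. Replicate 2 gave 32 (26.9%), against 59.6%, and replicate 3 gave 35 (29.4%), against 63.1%. The receptor share was thus below that of all genes in each of the 3 replicates, and the receptor intervals, which reached at most 38.1%, did not reach it. Among the 3845 strongest peaks of each replicate, as many as the optimal list holds, each replicate taken by itself had 2 receptor genes with a summit within 1 kb, against 22.5%, 21.3% and 22.9% of all genes in replicates 1, 2 and 3. The 2 genes were Or88a and Or9a in replicates 1 and 2, and Or88a and Gr97a in replicate 3. Replicate 3 also had a peak of signal 48.2 that matched the pooled Or9a peak. Its summit lay beyond the 1 kb window of Or9a.

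**Figure D1:**
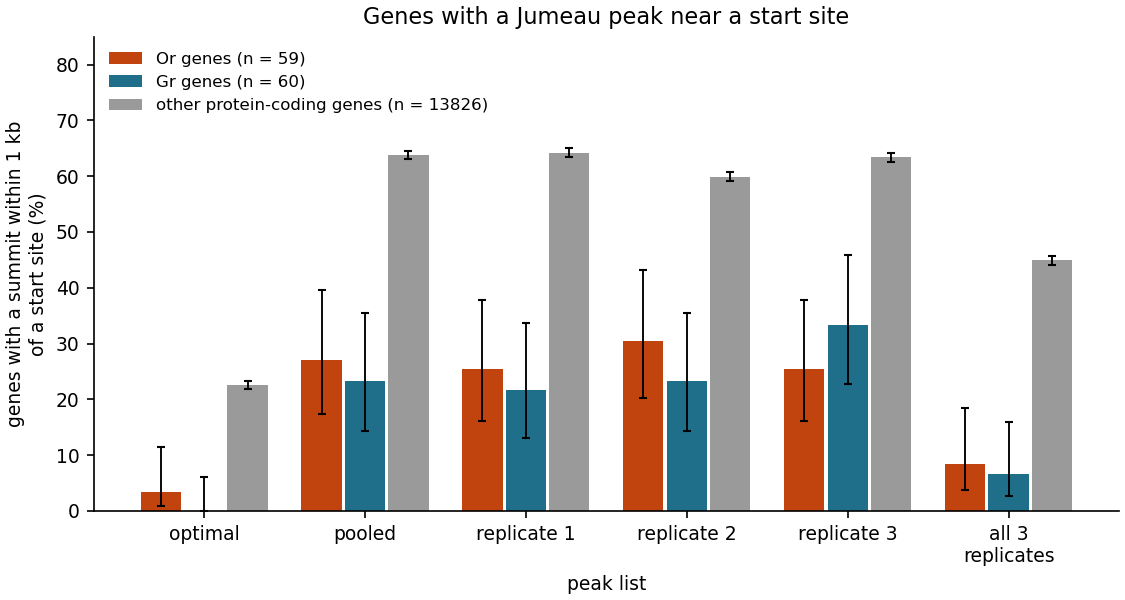
Share of genes (%) with a peak summit within 1 kb of an annotated start site, for Or genes, Gr genes and other protein-coding genes, in the optimal list, the pooled list, each replicate and all 3 replicates at once. Error bars are 95% Wilson intervals, which cover counting error only, and both receptor families stand below the other genes in every list.

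The replicates seldom had a peak at the same receptor gene. In 9 receptor genes (7.56%, 4.03 to 13.8%) all 3 replicate lists had a summit within 1 kb, against 44.6% of all protein-coding genes. These were Or7a, Or45b, Or65a, Or85f, Or88a, Gr21a, Gr28a, Gr63a and Gr64a. The summits of the replicates need not coincide. Among these 9 genes, only Or88a, Gr21a, Gr28a, Gr63a and Gr64a had a pooled peak matched within 100 bp in every replicate. At Or45b the summit lay 955 bp upstream in replicate 1, and 242 and 274 bp downstream in replicates 2 and 3. Or9a is absent because its replicate 3 summit lay beyond 1 kb. A further 19 receptor genes had a summit in 2 lists, 30 in a single list and 61 in none. A summit in any list was thus found at 58 receptor genes (48.7%, 39.9 to 57.6%), against 79.1% of all genes. Of the receptor genes with a summit in any list, 15.5% (8.38 to 26.9%) had it in all 3, against 56.6% (55.7 to 57.5%) of such other genes.

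Peak strength moved with that sharing. The 35 pooled peaks within 1 kb of receptor genes were mostly weak, and 6 of them (17.1%) had a summit within 100 bp in all 3 replicates, against 23.1% of all pooled peaks. With the pooled list cut by signal into 4 equal bands, 4 of 6 receptor peaks in the strongest band were so matched (66.7%), against 71.8% of all peaks in it. In the next band it was 1 of 4 (25%), against 18.1%. In the third it was 1 of 14 (7.14%), against 2.21%, and in the weakest 0 of 11, against 0.309%. Most receptor peaks thus fell in the bands where few peaks of any gene were matched.

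How a start site is annotated moved with the counts of the other genes, and less with those of the receptor genes. Only 37 receptor genes (31.1%) had an annotated 5′ UTR, 16 Or and 21 Gr, against 13417 of the other genes (97%). In the remaining 82 the annotated start site is where the modelled coding sequence begins, so the true start of transcription may lie farther upstream. This division was chosen after the annotation had been seen. Among genes without a 5′ UTR, an optimal summit lay within 1 kb at 2 of 82 receptor genes (2.44%), against 9 of 409 other genes (2.2%), and a pooled summit at 22 (26.8%), against 108 (26.4%). A summit in all 3 replicates was found at 7 of these receptor genes (8.54%), against 38 of these other genes (9.29%). In this class the receptor shares thus lay close to those of the other genes, and the difference was not tested.

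Among genes with a 5′ UTR the receptor genes were lower than the rest. An optimal summit lay within 1 kb at 0 of 37 receptor genes, which allows up to 8.11%, against 23.2% of other genes. A pooled summit was found at 8 (21.6%), against 64.9%, and a summit in all 3 replicates at 2 (5.41%), against 46%. When distance was taken from the outermost start codon for every gene, 2 receptor genes (1.68%) had an optimal summit within 1 kb, against 17.4% of other genes, and 31 (26.1%) had a pooled summit, against 58.2%. The missing 5′ UTR models move together with the receptor family, and their part in the low counts was not tested beyond these values.

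Other features of the receptor genes differed from those of the rest. Another gene's start site lay within 1 kb of 29 receptor genes (24.4%), 8 Or and 21 Gr, against 47.5% of other genes. A single annotated start site was found in 110 receptor genes (92.4%), against 73.3%, and 24 receptor genes (20.2%) lay inside another gene, against 14.1%. Within each of these classes the receptor share stayed below that of other genes. Among genes with another start site within 1 kb, 8 of 29 receptor genes (27.6%) had a pooled summit, against 76.6% of other genes. With the nearest other start site at 1 to 5 kb it was 19 of 69 (27.5%), against 52.8%, and beyond 5 kb it was 3 of 21 (14.3%), against 49.9%. Among genes with 1 start site it was 27 (24.5%), against 57.6%.

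Or88a, a receptor for odours of other flies, had the strongest peak. Its pooled peak at chr3R:14108525-14108944 had a signal of 186 and ranked 1843 of 29812, close to the median of 181 over optimal peaks. The replicate signals were 79.5, 37.3 and 63.8 in replicates 1, 2 and 3, or 1.06, 0.642 and 1.17 as relative signal, with a mean of 0.959 ± 0.279 (SD, n = 3). Replicate 2 was the lowest and the other two lay above their own medians. The summit was intergenic, 710 bp upstream of the Or88a start site and nearer to CG12402, at 414 bp.

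Or9a had the other optimal peak, at chrX:10460463-10460882, with a signal of 183. Its replicate signals were 73.1, 51.7 and 48.2 in replicates 1, 2 and 3, and the relative signal was 0.978, 0.891 and 0.885, with a mean of 0.918 ± 0.0522 (SD, n = 3). The replicates lay close together and just under their medians. The summit was 997 bp upstream of Or9a, at the edge of the 1 kb window, and 63 bp from the start site of Neb-cGP. Both optimal peaks of receptor genes were thus nearer to another gene, and none remained when the nearest gene was required, where the share over all protein-coding genes was 15.6%.

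The carbon dioxide receptor is built from Gr21a and Gr63a, and both genes had a summit in all 3 replicates. The pooled peak at Gr63a, at chr3L:3896597-3897016, had a signal of 89.8. The relative signal was 0.476, 0.458 and 0.362 in replicates 1, 2 and 3, with a mean of 0.432 ± 0.0615 (SD, n = 3). Every replicate was thus below its median optimal peak. The summit lay in the shared stretch printed above, 204 bp upstream of Gr63a and 93 bp from Lamtor4, a subunit of the Ragulator complex that is transcribed away from Gr63a. Replicate 2 also had a summit of signal 35, against 26.6 at its matched summit, 26 bp upstream of Gr63a and 271 bp from Lamtor4. Replicate 3 also had a summit of signal 14.9 in the coding sequence of Gr63a, 84 bp downstream of its start site. These further summits are not part of the relative signal above.

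Of the pooled peaks within 1 kb of a receptor gene, that at Gr21a was the strongest whose nearest start site was the receptor gene's own. It lay at chr2L:780871-781290 with a pooled signal of 57.6, in the 5′ UTR of Gr21a, 195 bp upstream of its inner start site. The relative signal was 0.294, 0.32 and 0.288 in replicates 1, 2 and 3, with a mean of 0.3 ± 0.017 (SD, n = 3). The SD was the smallest among the 6 receptor genes whose pooled peak was matched in all 3, but the mean was low too, above that of Gr28a alone. No other gene's start site was within 1 kb of the summit, the next being CG13947 at 1908 bp.

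Of the 9 sugar receptor genes, Gr43a and Gr64a had a pooled summit within 1 kb. Gr64a, part of the 6-gene array Gr64a to Gr64f, had a signal of 76.6 at chr3L:4025712-4026131. Its relative signal was 0.479, 0.374 and 0.269 in replicates 1, 2 and 3, with a mean of 0.374 ± 0.105 (SD, n = 3). The summit lay 847 bp upstream, in the 5′ UTR of CG11594, whose start site was 89 bp away. No other gene of the array had a pooled summit within 1 kb. Gr43a, the fructose receptor, had a signal of 51.3 from a summit in the coding sequence of Glo1, matched in replicates 2 and 3 at a relative signal of 0.351 and 0.411. Gr5a, the trehalose receptor, and Gr61a had none in any list.

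Among 5 bitter receptor genes, Gr32a, Gr66a and Gr93a had a pooled summit, with signals of 47.8, 39.3 and 39, and none had a summit in all 3 replicates. Gr33a and Gr8a had none in any list. The summits of Gr66a and Gr93a lay in the genes' own coding sequence, while that of Gr32a was nearer to Idua, at 208 bp. Of the pair Gr28a and Gr28b, Gr28b being known from warmth sensing, Gr28a had a pooled signal of 45 in its own coding sequence, 543 bp downstream of its start site. The relative signal at Gr28a was 0.168, 0.297 and 0.322 in replicates 1, 2 and 3, with a mean of 0.262 ± 0.0827 (SD, n = 3), so replicate 1 stood lowest. Replicates 2 and 3 also had a summit 36 and 56 bp upstream of Gr28a. Its signal was 16.8 and 25, beside 17.2 and 17.6 at their matched summits. Gr68a and Gr39a, known from courtship, had a summit in replicate 3 only.

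Of the 4 pheromone receptor genes, Or88a, Or65a and Or47b had a pooled summit and Or67d, a receptor for the male pheromone cis-vaccenyl acetate, had none in any list. Or65a had a pooled signal of 50.3 at a summit 799 bp inside the gene, matched in replicate 1 at a relative signal of 0.184 and in replicate 3 at 0.36. Or47b had a pooled signal of 39. Or56a, the geosmin receptor, had a pooled signal of 38.5 in its coding sequence, matched within 100 bp by no replicate. Of 9 receptor genes for food odours, only Or42b had a pooled summit, with a signal of 56.9, matched in replicate 1 alone. Or22a, Or43b and Or59b had a summit in 1 or 2 replicate lists, and Or42a, Or85a, Or10a, Or82a and Or30a in none.

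The strongest peaks near receptor genes sat closer to another gene. The 6 highest pooled peaks, at Or88a, Or9a, Gr97a, Gr63a, Gr64a and Or71a, were all nearer to the start site of another gene. At Gr97a a summit of signal 95.5 lay in the 5′ UTR of CG5521 and was matched in replicates 1 and 3 at a relative signal of 0.411 and 0.754. At Or71a a summit of signal 74.2 lay in the 5′ UTR of Plp, a centrosomal protein gene, and was matched in replicate 3 alone at 0.668. Over all 30 receptor genes with a pooled summit, another gene was nearer in 10 (33.3%), against 26.8% of the 8815 other genes.

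**Figure D2:**
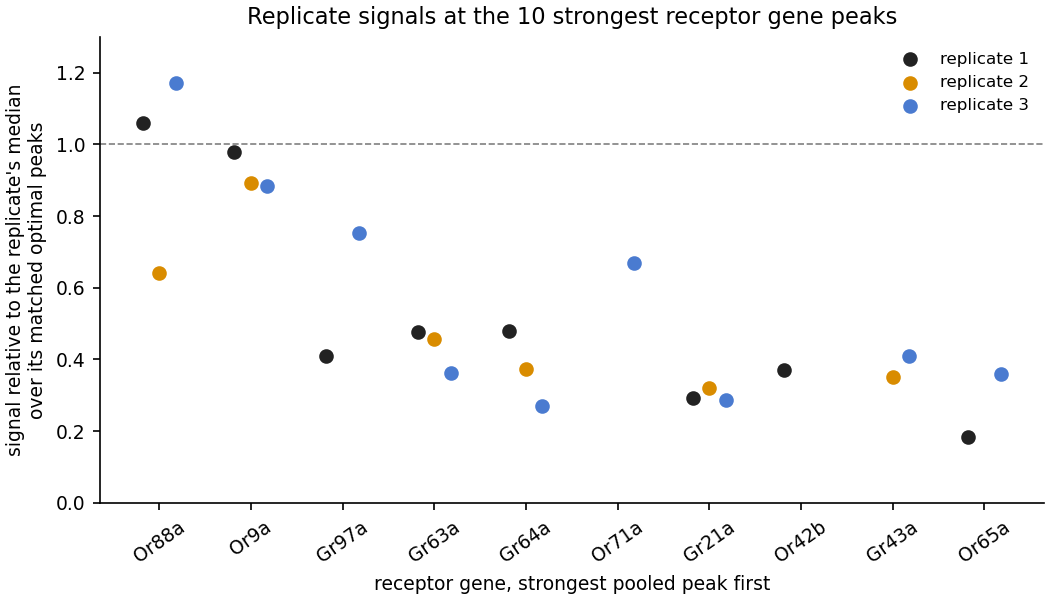
Relative signal of replicates 1, 2 and 3 at the strongest pooled peak of the 10 receptor genes with the highest pooled signal, strongest at the left, where 1 is that replicate's median across optimal peaks with a matching summit. A missing point means that the replicate had no summit within 100 bp, and points at or above 1 are seen at Or88a alone.

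Within the window the receptor summits lay differently from those of other genes. The strongest pooled summit of a receptor gene lay at a median of 568 bp from the start site, against 236 bp for other genes. It lay within 250 bp in 5 of 30 receptor genes (16.7%), all of them Gr, against 51.7% of other genes, and none of the 16 Or genes was among them. The summit lay in the gene's own coding sequence in 14 receptor genes (46.7%), against 16.5% of other genes, and the share was 46.4%, 53.1% and 40% in replicates 1, 2 and 3, against 12.6%, 20.7% and 17.8%. Where no 5′ UTR is modelled, coding sequence starts at the start site itself, and these shares were not split by 5′ UTR. The median pooled signal was 44.9 at receptor genes (35.9 to 186), against 80.1 at other genes.

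**Figure D3:**
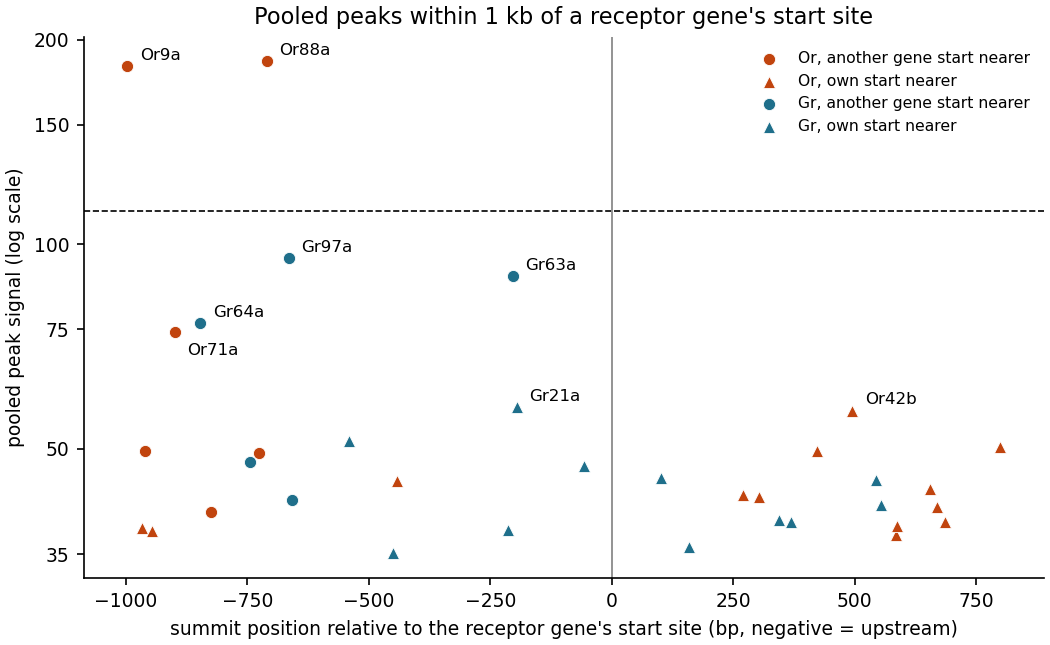
Pooled peaks within 1 kb of a receptor gene's start site, by summit position relative to that start site (bp, negative upstream) and pooled signal (log scale). Circles are summits nearer to another gene's start site, triangles those nearest to the receptor gene, and the dashed line is the weakest optimal signal, 112, above which only Or88a and Or9a lie.

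Receptor genes were also farther from optimal peaks at longer range. The median distance from a start site to the nearest optimal summit was 17286 bp (quartiles 8686 and 46846 bp), against 7820 bp (1538 and 22003 bp) for other genes. It was 29950 bp for Or and 11558 bp for Gr genes. Distances over 10 kb were found for 87 receptor genes (73.1%), 51 Or (86.4%) and 36 Gr (60%), against 44.2% of other genes. Measured to the 3845 strongest peaks of each replicate, the receptor median was 26765, 16405 and 19608 bp in replicates 1, 2 and 3, against 7706, 8080 and 7978 bp for other genes. Among other genes the distance again moved with the 5′ UTR, while the receptor medians with and without it lay close together when Or and Gr were joined. Receptor genes without one had a median of 16714 bp, against 14071 bp for other such genes, and receptor genes with one had 18354 bp, against 7613 bp. The families were apart here too. Or genes had 27430 bp without a 5′ UTR (n = 43) and 44087 bp with one (n = 16). Gr genes had 12669 bp without (n = 39) and 11440 bp with one (n = 21).

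**Figure D4:**
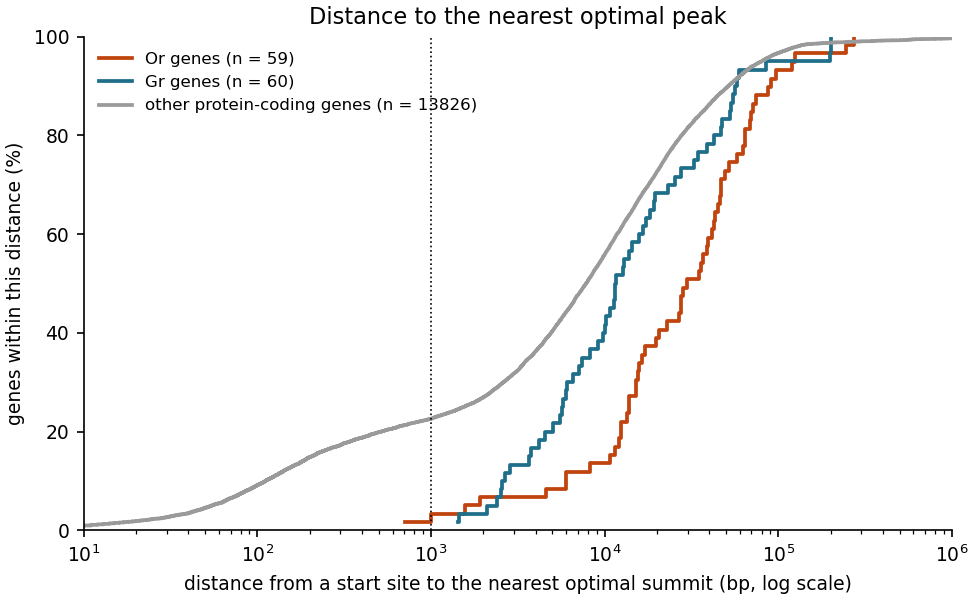
Cumulative share of Or genes, Gr genes and other protein-coding genes (%) by distance from an annotated start site to the nearest optimal summit (bp, log scale), with the 1 kb window dotted. Beyond 10 kb lay 86.4% of Or and 60% of Gr genes, against 44.2% of other genes.

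After Or88a and Or9a, the receptor genes nearest to an optimal summit were Gr89a at 1424 bp, Gr5a at 1453 bp and Or46a at 1571 bp. The peak near Gr5a had a signal of 157 and lay 813 bp from Tre1, and that near Or46a had 153 and lay 52 bp from CG18011. The farthest were Or67c at 274419 bp, Or67d at 245921 bp, and Gr36a, Gr36b and Gr36c at 202267, 200113 and 198547 bp. Gr36a, Gr36b and Gr36c form 1 array and share their nearest peak. The nearest optimal summit was thus at 198547 bp or farther from each of these 5 genes.

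Of the 3845 optimal peaks, 5 (0.13%) had a receptor gene's start site as the nearest, and all lay more than 1 kb away. They belonged to Gr89a, Gr93a, Gr93b and Gr93d. For scale, receptor genes were 119 of the 18164 genes whose start sites were searched. The strongest, at chr3R:21828133-21828552, had a signal of 298 and lay 4160 bp from Gr93a. In the pooled list 84 peaks (0.282%) were nearest to a receptor gene, 8 in the strongest band, 19 in the second, 30 in the third and 27 in the weakest. Such peaks were thus fewest among the strongest.

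Receptor genes often stand in arrays, and no array had a pooled summit at every gene. With genes grouped where 5′ ends lay within 10 kb, 18 arrays held 50 genes. A pooled summit was found at 8 of the 50 genes in arrays and at 22 of the 69 outside, beside 63.4% of all protein-coding genes. Other genes were not grouped into arrays, and the difference was not tested. Of the 18 arrays 7 had a pooled summit at some gene. The array Gr22a to Gr22e had it at Gr22d alone, and the array of Or65a, Or65b and Or65c at Or65a and Or65b. Array members can be similar in sequence, which was not measured here, and whether reads with several matches were kept is not stated in the sources used here. The part of this in the counts was not tested.

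Other genes of chemical sensing were set beside the receptors, from lists chosen with results of these data known. Of 60 ionotropic receptor genes, another receptor family of taste and smell, 0 had an optimal and 11 (18.3%) a pooled summit within 1 kb, and 5 (8.33%) a summit in all 3 replicates. Among 49 odorant-binding protein genes, whose products are secreted into sensory hairs, the counts were 1 (2.04%), 17 (34.7%) and 10 (20.4%). Among 29 pickpocket sodium channel genes they were 1 (3.45%), 11 (37.9%) and 6 (20.7%). These stand beside 22.4%, 63.4% and 44.6% of all protein-coding genes. The co-receptor gene Orco had a pooled signal of 36.3 at 845 bp upstream, matched in replicate 1 alone, and Ir25a, the broad ionotropic co-receptor, had 48.3.

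Transcription factor genes of receptor choice and sense organ development were the last list. Of 13 matched factors, 3 (23.1%) had an optimal summit, a share near the 22.4% of all protein-coding genes. A pooled summit was found at 11 (84.6%), against 63.4% of all genes, and a summit in all 3 replicates at 10 (76.9%), against 44.6%. The optimal ones were Xbp1, of the unfolded protein response, ey, the eye selector gene, and sd, a TEAD factor. At ey the relative signal was 1.02, 0.685 and 0.887 in replicates 1, 2 and 3, so the peak was near the median of optimal peaks. The Xbp1 peak was matched within 100 bp in replicate 2 alone, at 1.18. The sd peak was matched in replicates 1 and 3, at 0.79 and 0.513. At pdm3, a POU factor of olfactory receptor choice, the pooled signal was 85.5 and the relative signal 0.585, 0.278 and 0.506. The POU factor gene acj6 had 57.3, and the proneural genes ato and amos 46.3 and 45.8. No test compared these lists with the receptors or with all genes.

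The promoters were searched for short words, in windows from 250 bases before to 50 after the 5′ end of each gene model, on both strands. The forkhead core TGTTTAC was in 9 of 119 receptor windows (7.56%), against 9.19% of all protein-coding genes. These were the windows of Gr22b, Gr61a, Gr64a, Gr77a, Gr98c, Or45a, Or47a, Or56a and Or85c. The TATA word TATAAA was in 64 receptor windows (53.8%), against 45.8% of all genes. It was in 46 of 59 Or windows (78%) and 18 of 60 Gr windows (30%). Among genes without a 5′ UTR it was in 32 of 43 Or windows (74.4%) and 10 of 39 Gr windows (25.6%), against 45.7% of other genes. With a 5′ UTR it was in 14 of 16 Or windows (87.5%) and 8 of 21 Gr windows (38.1%), against 45.7%, so the families were apart in both classes. A match is a description of the letters and not a site.

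The initiator word TCAGT was in 48.7% of receptor windows, against 51.5% of all genes. The word ATCGAT of the DRE element was in 14.3%, against 23.3%, the word GAGAG bound by GAGA factor in 23.5%, against 29.7%, and the E-box CAGCTG in 9.24%, against 17.7%. Among genes without a 5′ UTR the DRE word was in 15.9% of receptor windows, against 12% of other genes, the GAGA word in 20.7%, against 20.3%, and the E-box in 7.32%, against 9.05%. Among genes with one the DRE word was in 10.8%, against 23.7%, the GAGA word in 29.7%, against 30.1%, and the E-box in 13.5%, against 18%. The shares of these words thus moved with the annotation of the 5′ UTR. The order of receptor and other genes for the DRE word was not the same in the 2 classes, and the GAGA shares lay close together in both. Median GC content was 39.7% in receptor windows and 38% in those of all genes. Overlaps between these words were not removed.

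**Figure D5:**
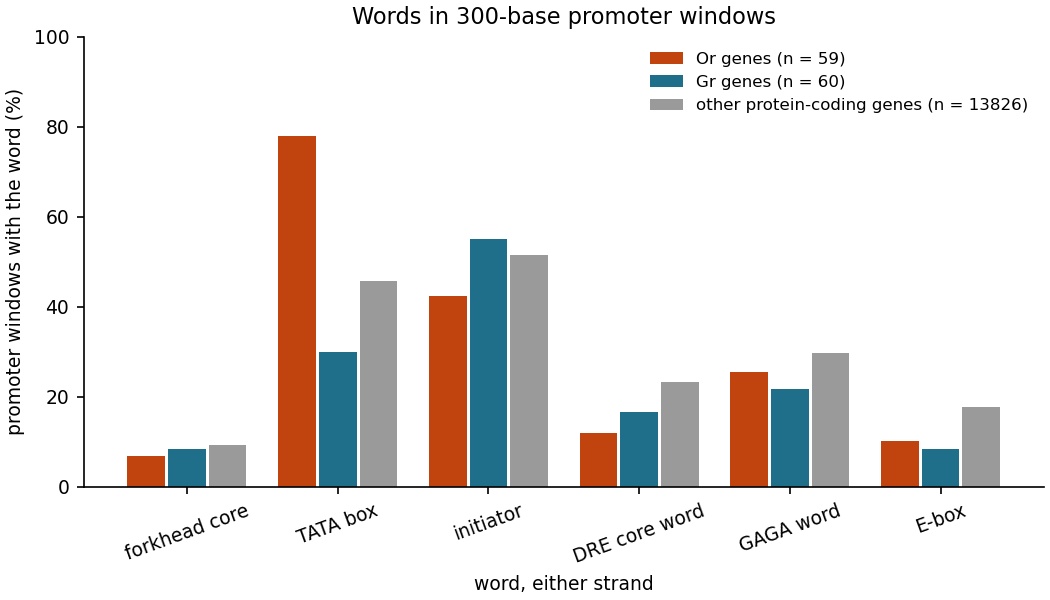
Share of promoter windows (%) that hold each short word on either strand, for Or genes, Gr genes and other protein-coding genes, in 300 bases around the 5′ end of the gene model. The TATA word is in 78% of Or and 30% of Gr windows, against 45.7% of other genes.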

How the data were processed

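Jumeau-eGFP was assayed by ChIP-seq with an antibody against GFP in 3 biological replicates of 1 group, per the labels. Per the deposited readme files, relaxed lists of peaks and background were made per replicate and for the series to feed the irreproducible discovery rate (IDR) procedure, and the optimal list was thresholded by IDR, in dm6. Those files name a control among the parents, which was not analysed here. The signal of each peak was deposited by the authors, and the sources used here do not state its scale, the peak caller, the settings or the depth. The dm3 lists were not used.

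Peaks were joined to Ensembl release 115 gene models (BDGP 6.54, 18164 genes, 23581 start sites, 6 arms) with Python 3.11.15, pandas 2.3.3, NumPy 2.4.6 and SciPy 1.17.1, and plotted with matplotlib 3.10.9. A gene was counted where the distance from a summit to its nearest start site was at most 1 kb. Replicate peaks were matched to pooled peaks by summits within 100 bp. Shares carry 95% Wilson intervals, and a count of 0 allows 3 counts of the total. The join was tested on simulated data. With 1 group there was no comparison of conditions and no test, and shares are set beside those of all protein-coding genes. All 119 members matched the RefSeq table on the same arm, and the annotated coding sequence of each began with a start codon in the RefSeq genome. The text names members with an optimal summit, the 10 with the strongest pooled summit, the 5 nearest to and the 5 farthest from an optimal summit, and receptors of known role. Others were named after their values were seen, where a count was small. The members and lists were chosen with earlier results of these data known. Of 15 listed factors 13 matched the annotation. Alternatives were other windows, the nearest gene only, stronger peaks, peak intervals, leaving out a replicate, the 5′ end of the gene model and, added after seeing the data, the start codon.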

Additional observations from a re-analysis of the deposited data

How the results depend on the processing

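Other windows and stricter peaks changed the counts of receptor genes. With 500 bp in place of 1 kb, 0 receptor genes had an optimal summit, 13 a pooled summit and 3 a summit in all 3 replicates. With 5 kb the counts were 17, 85 and 56. A pooled summit was found at 10.9% of receptor genes at 500 bp and 71.4% at 5 kb, against 52.1% and 88.7% of all protein-coding genes. The optimal share of all protein-coding genes was 19.7% and 40.2%. Where no other gene's start site could be nearer, 0 had an optimal summit. With the stronger 50% of each list, 10 had a pooled summit and 2 a summit in all 3 replicates, and the median distance to an optimal summit was 42282 bp. Leaving out a replicate gave 14 to 17 receptor genes in both remaining lists, which follows from asking for fewer lists, 2 to 2 with an optimal summit, and a median distance of 26691 to 28934 bp, which follows from fewer optimal peaks. With the start codon in place of the start site the counts were 2, 31 and 9. The optimal count was 2 with peak intervals and with the stronger optimal peaks, the pooled count 21 (beside 53.7% of all protein-coding genes) and the count in all 3 replicates 6 with the nearest gene required, and the median distance 18354 bp from the 5′ end of the gene model. No share of all genes is given here for the counts in all 3 replicates, the stronger peaks or the left-out replicates. The distances in these settings carry no value of other genes either, so these values describe the receptor genes alone. No paired analysis was possible because there was 1 group.

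The depth is unknown and the control named in the readme files was not analysed here, so a receptor gene without a peak is not shown to lack Jumeau. The 1 kb window, set from the annotation, reaches less of the upstream DNA where no 5′ UTR is modelled.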
